A study of Mus musculus with 13 samples.

Results

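The comparison described here is the addition of butyrate to a high-fat diet in K-Ras mutant mice, measured in duodenum, the stretch of small intestine next to the stomach. It covers 5 of the 13 arrays of the series, namely the 3 mutant arrays labelled high-fat diet with butyrate and the 2 mutant arrays labelled high-fat diet alone. Those labels chose the members, and no measured value did. The mutant mice are called ViRas. In the study they carry an oncogenic K-Ras allele switched on by a Cre recombinase under the villin promoter, so the mutation lies in the gut epithelium while the samples are whole duodenum. The labels say only that the genotype is K-Ras mutant and that the strain background was mixed. Diets began at 5 weeks of age and lasted 22 weeks, and no dose of butyrate is stated in the labels. Outside this comparison stand 1 wild-type array on high-fat diet with butyrate, 2 wild-type arrays on high-fat diet, and, on normal diet, 2 wild-type and 3 mutant arrays. These arrays enter the estimate of spread and are shown where they help to place a level. Each sample was hybridised to its own Affymetrix array, and every level below is the authors' RMA expression level on a log2 scale, so that a difference of 1 is a 2-fold change.

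Butyrate is a short-chain fatty acid that bacteria make from fibre, mainly in the large bowel. Epithelial cells take it up through monocarboxylate transporters and burn it in mitochondria by beta-oxidation. It also binds receptors of the free fatty acid family and inhibits histone deacetylases, enzymes that remove acetyl groups from histones and other proteins. The duodenum is known for the absorption of iron, calcium, vitamins and fat, and for the brush border enzymes that finish digestion. The comparison asks what butyrate changes in the mutant duodenum when the fat content of the diet stays high.

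The 3 butyrate arrays were not alike, and 2 of them lay near wild-type level in genes that differ by genotype. In the 9 arrays without butyrate, 574 genes differed by genotype in limma with diet as a term, 278 higher and 296 lower in mutants. On a scale where 0 is the wild-type mean and 1 the mutant mean of a gene, the median position over these genes was 0.16 on butyrate array 1, 1.00 on array 2 and 0.18 on array 3. The wild-type butyrate array lay at 0.20, the 4 other wild-type arrays between -0.19 and 0.17, and the 5 other mutant arrays between 0.81 and 1.23. The 9 arrays without butyrate chose the genes and set the scale, so their places near 0 and 1 follow from that choice. Only the butyrate arrays lie outside it. Butyrate array 2 was on the mutant side of the midpoint in 86.1% of the genes, and arrays 1 and 3 in 27.4% and 30%. The basic helix-loop-helix factor Tcf23 read 7.86 and 8.14 on the mutant high-fat arrays and 5.26, 8.49 and 4.85 on the butyrate arrays, against 4.57 to 5.76 on all 5 wild-type arrays. The secreted guidance cue Slit2 read 7.0 and 7.53 on high-fat diet and 5.72, 8.49 and 5.84 with butyrate. Lamb3, a laminin chain of basement membranes, separated the arrays less, with 9.05 and 8.56 on high-fat diet and 7.99, 8.16 and 7.73 with butyrate. Slit2 and Lamb3 were named after their values were seen. K-Ras itself has no value among the genes tested, so the mutation cannot be checked directly. What set butyrate arrays 1 and 3 near wild-type level was not tested. The results below are therefore given over all 3 libraries labelled mutant with butyrate. A fit with 1 butyrate array is less precise, so a lost call need not set that array apart. Each paragraph names the genes whose call was lost with array 2 alone. Lamb3 is one of these (-0.84, adjusted p = 0.00403 over all 3 arrays and 0.0954 with array 2 alone).

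**Figure D1:**
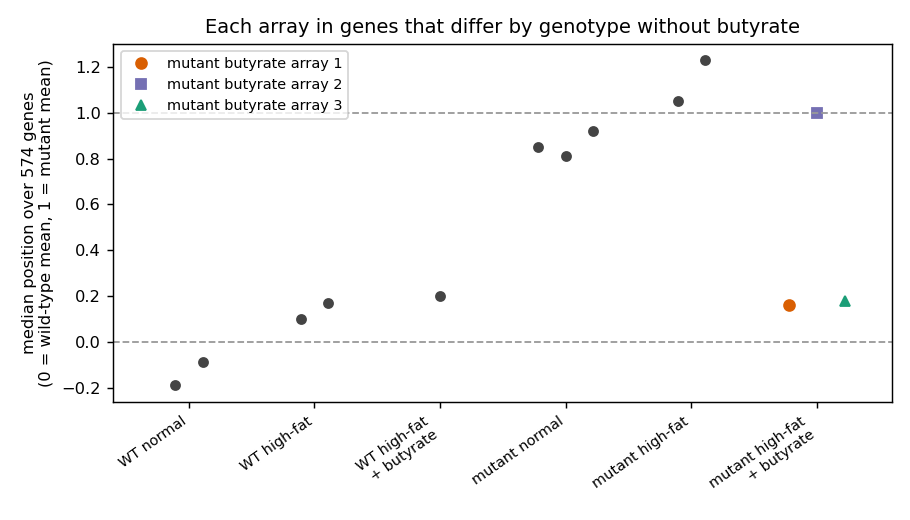
Median position of each of the 13 arrays over the 574 genes that differed by genotype in the 9 arrays without butyrate, where 0 is the wild-type mean and 1 the mutant mean; points are arrays, and the 3 mutant butyrate arrays have their own symbols. Butyrate array 2 sits at 1.00 beside the other mutant arrays, while arrays 1 and 3 sit at 0.16 and 0.18 beside the wild-type arrays. The 9 arrays without butyrate chose the genes and set the scale, so their places near 0 and 1 follow from that choice.

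Other features of the arrays moved with the comparison. Each diet has its own series of array numbers, so diet and array series cannot be told apart. A control probe set for ribosomal RNA read 11.82 and 12.05 on the mutant high-fat arrays and 8.79, 9.84 and 9.10 on the butyrate arrays. It read 11.57 and 11.64 on the wild-type high-fat arrays and 8.87 on the wild-type butyrate array, so the gap followed the diet label in both genotypes. The 3' signal of actin exceeded its 5' signal by 0.28 and 0.20 on high-fat diet and by 0.45, 0.27 and 0.70 with butyrate. The kit in the labels is one made for arrays of whole transcripts, while the probe sets have the names of a 3' array, so what this difference measures is not settled. Array medians over all probe sets lay between 6.04 and 6.14. The mean of 11 general epithelial genes, which checks for epithelium and not for the part of the gut, was 11.86 and 11.87 on high-fat diet and 11.83, 11.87 and 11.82 with butyrate. The duodenal factors Gata4 and Pdx1 read 7.93 to 9.37 and 6.80 to 8.24 on these 5 arrays. Markers of neighbouring tissue varied without following the diet. The mean of 21 genes of the acinar pancreas was 9.98 and 6.35 on high-fat diet and 7.31, 10.12 and 6.47 with butyrate, and the mean of 12 stomach genes was 6.67 and 6.33 against 7.18, 5.62 and 5.15. By limma 0 genes of either list passed the threshold, with 0 acinar genes and 1 stomach gene at an unadjusted p under 0.05. The part of these features in the results was not tested, except that the acinar mean was also entered as a covariate. All samples are bulk tissue, in which fewer cells of a type and less RNA per cell cannot be told apart. The design text speaks of mice under separate identifiers without saying more of how samples were taken, so p-values here cover only the spread among these samples.

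With butyrate, mutant duodenum had lower levels of the transcriptional repressor Zbtb7a, the histone demethylase Kdm5a, the monocarboxylate carrier Slc16a3, the insulin receptor substrate Irs2 and the retinol-binding protein Rbp2 on all 3 arrays. Higher on all 3 were the unconventional myosin Myo7a and the cycling-cell marker Mki67. Falls of the iron genes Cybrd1 and Slc11a2 were not called with array 2 alone, the butyrate array at mutant level in genotype genes. Of 25 macrophage and dendritic cell genes 11 rose and 1 fell, against 12.9% and 8.78% of all genes. The 11 rises were not called with array 2 alone, and the fall was that of Cx3cr1. By limma at an adjusted p of 0.05, 2685 of 12393 genes differed (21.7%), 1597 higher (12.9%) and 1088 lower (8.78%). The balance of directions depended on the processing, with 1371 higher and 1257 lower after quantile normalization and 1471 and 1394 with the mean of probe sets. At larger sizes falls outnumbered rises, with 149 genes higher and 246 lower at 2-fold or more, and 8 higher and 36 lower at 4-fold or more. The median difference over all genes was 0.02. The arrays of the compared groups did not overlap in 2680 of the 2685 called genes, against 6062 of all genes (48.9%).

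The count depended on which butyrate array was used. Against the 2 high-fat arrays, array 1 alone gave 2066 genes, array 3 alone 1740, and array 2 alone, the one at mutant level in genotype genes, 642 (5.18%). Array 2 alone also reversed the balance, with 283 genes higher (2.28%) and 359 lower (2.9%). Arrays 1 and 3 without array 2 gave 3041 genes (24.5%), 1822 higher and 1219 lower. Among the 2685 genes, 496 (4% of all genes tested) passed with each butyrate array alone and in the same direction, 206 higher and 290 lower. A further 697 passed with arrays 1 and 3 each alone and not with array 2, and 26 passed with array 2 alone and not with either of the others. Of the 574 genotype genes, which share the high-fat arrays with this comparison, 178 (31%) were called, 172 of them in the direction of the wild type, and 24 were called with array 2 alone. Leaving out high-fat array 1 gave 1317 genes and leaving out high-fat array 2 gave 1456, and 850 of the 2685 passed whichever of the 5 arrays was omitted.

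Zbtb7a, Kdm5a, Nrip1, Rest and Resf1, which act in the nucleus, were among the 15 largest falls. They were grouped after their values were seen, and no list of such regulators was counted. Zbtb7a, a zinc finger repressor of transcription, read 8.76 and 8.48 on high-fat diet and 4.79, 4.93 and 4.73 with butyrate. It fell by 3.80 ± 0.15 SE (14-fold, limma adjusted p = 2.28e-07). Kdm5a, a demethylase of histone H3, read 6.63 and 6.71 against 3.26, 3.64 and 3.27 (-3.28 ± 0.15, adjusted p = 8.08e-07). In both genes the butyrate arrays spanned less than the gap to the high-fat arrays, and the normal diet levels of mutants, 5.49 to 5.65 and 4.04 to 4.31, lay closer to the butyrate levels. Nrip1, a corepressor of nuclear receptors, read 8.43 and 8.91 against 5.49, 5.83 and 5.50 (-3.07 ± 0.23). Rest, the repressor of neuronal genes, read 6.81 and 7.08 against 3.71, 3.72 and 4.43 (-2.99 ± 0.23). Resf1, a partner of histone methylation in silencing, read 7.19 and 6.83 against 4.31, 3.63 and 4.50 (-2.86 ± 0.22). These 3 genes passed with each butyrate array alone. Rest has 2 other probe sets, which changed by -0.30 and -0.33 and did not pass (adjusted p = 0.267 and 0.0776), so its fall rests on 1 probe set. The other probe sets of Resf1 fell by 1.93 and 0.62, and that of Nrip1 fell by 1.26.

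Other genes among the 15 largest falls act in signalling or as scaffolds, again grouped after their values were seen. Irs2, which carries the signal of the insulin receptor, read 8.05 and 8.09 on high-fat diet and 5.14, 5.32 and 5.52 with butyrate (-2.74 ± 0.16, 6.70-fold, adjusted p = 4.57e-06). On the wild-type high-fat arrays Irs2 read 6.64 and 6.63, and on the wild-type butyrate array 4.80. Akap9, a scaffold that anchors protein kinase A, read 6.36 and 6.34 against 3.06, 3.11 and 3.75 (-3.04 ± 0.19). Iqgap2, a scaffold of the actin cytoskeleton, read 9.33 and 9.24 against 6.67, 6.45 and 6.16 (-2.86 ± 0.21). Cbl, a ubiquitin ligase that ends the signal of growth factor receptors, read 7.05 and 6.48 against 3.63, 3.91 and 4.85 (-2.63 ± 0.31). Espn, which bundles the actin of microvilli, read 8.79 and 8.65 against 6.32, 6.37 and 5.89 (-2.53 ± 0.14). Ppara, the nuclear receptor that senses fatty acids, read 8.31 and 9.11 against 6.07, 6.41 and 5.87 (-2.59 ± 0.27, adjusted p = 0.000138). In all 6 genes every butyrate array was below both high-fat arrays, and each array alone was enough to pass with an adjusted p of 0.00956 or less for array 2. For Ppara the butyrate arrays were also below the mutant normal diet arrays, at 7.21, 7.56 and 8.04.

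**Figure D2:**
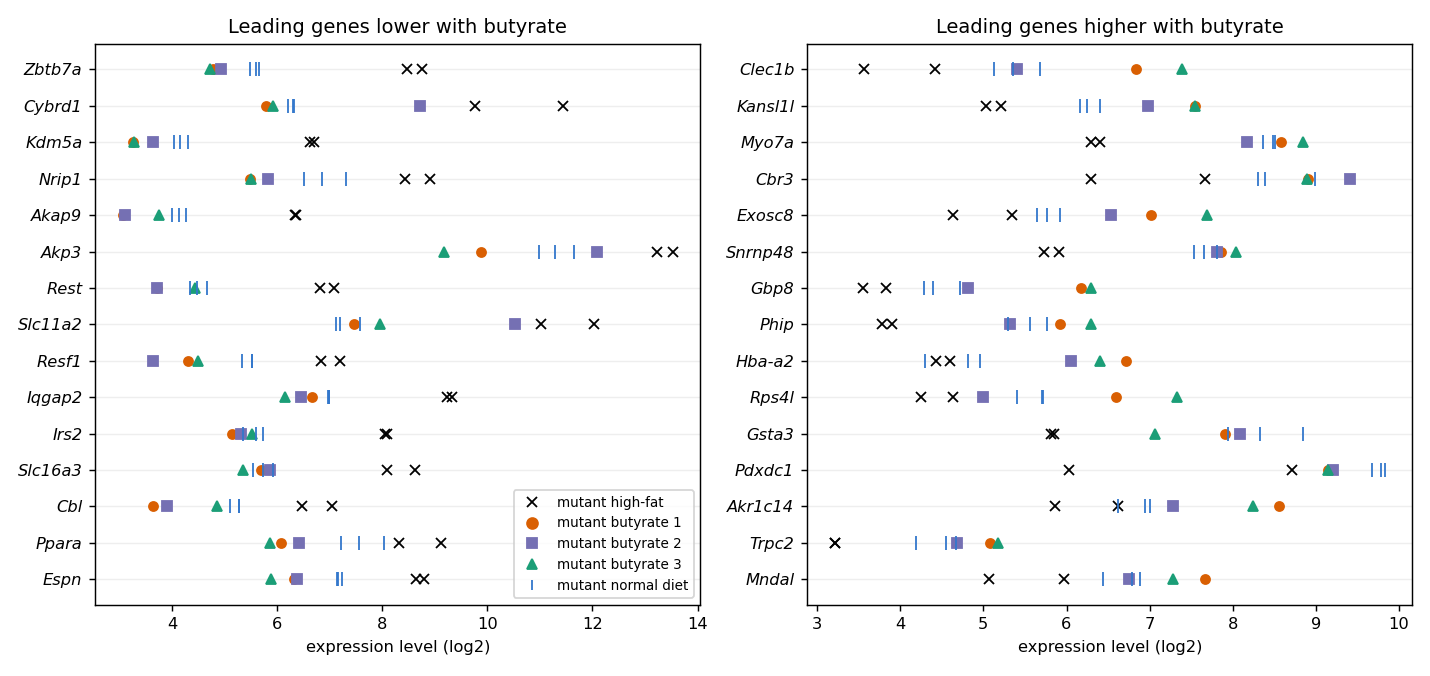
Expression levels (log2) of the 15 largest falls (left) and 15 largest rises (right) past the threshold, one row a gene; crosses are the 2 mutant high-fat arrays, filled symbols the 3 butyrate arrays, and ticks the 3 mutant normal diet arrays. In Zbtb7a and Kdm5a the 3 butyrate arrays lie together, while in Cybrd1, Slc11a2 and Akp3 array 2 stands between the high-fat arrays and the other butyrate arrays.

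The iron absorption genes Cybrd1 and Slc11a2 were among the largest falls, and here the butyrate arrays split. Cybrd1, the ferric reductase of the duodenal brush border, read 11.44 and 9.76 on high-fat diet and 5.79, 8.72 and 5.93 with butyrate. It fell by 3.79 ± 0.73 (13.8-fold, adjusted p = 0.00465), but not past the threshold with array 2 alone (adjusted p = 0.0772). Slc11a2, which carries ferrous iron into the enterocyte, read 12.03 and 11.02 against 7.46, 10.53 and 7.96 (-2.87 ± 0.71, adjusted p = 0.0146), with an adjusted p of 0.243 with array 2 alone. Arrays 1 and 3 thus stood near the mutant normal diet levels, which were 6.21 to 6.32 for Cybrd1 and 7.12 to 7.57 for Slc11a2, and array 2 stood closer to the lower high-fat array. The other probe sets of Slc11a2 fell by 0.99 and 2.44. Without array 2 the falls were 4.74 and 3.81. Slc40a1, the exporter ferroportin, read 11.96 and 11.21 against 10.08, 11.38 and 10.46 and did not pass (-0.94 ± 0.32, adjusted p = 0.0553). Tfrc, the transferrin receptor, read 11.44 and 11.31 against 10.87, 10.79 and 10.88 and fell by 0.53 ± 0.17 (adjusted p = 0.0423, with no butyrate array alone and in none of the 5 fits that left out 1 array), and its other probe sets fell by 1.1 and 1.17. Of 12 measured genes of iron and calcium absorption, 3 fell and 0 rose, against 8.78% and 12.9% of all genes, with a list median of -0.29. With array 2 alone 0 passed, and without it 4 fell.

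Akp3, an intestinal alkaline phosphatase often used as a marker of butyrate-induced differentiation in cell culture, did not rise. It read 13.53 and 13.23 on high-fat diet and 9.87, 12.08 and 9.18 with butyrate (-3.01 ± 0.70, 8.04-fold lower, adjusted p = 0.0111). Array 2 alone did not pass (adjusted p = 0.216), and the mutant normal diet arrays read 10.98, 11.29 and 11.64. Of 14 measured brush border enzymes and transporters, 1 rose and 3 fell, against 12.9% and 8.78% of all genes, and the list median was 0.10. Without array 2 the counts were 6 and 3, and with array 2 alone 0 and 3. Treh, the enzyme that splits trehalose, fell by 0.68 ± 0.14 from 11.93 and 11.71 to 11.30, 11.14 and 10.98. Anpep, an aminopeptidase, read 12.53 and 12.43 against 11.57, 9.75 and 11.41 (-1.57 ± 0.42, adjusted p = 0.0209). In Anpep array 2 was the lowest, the reverse of the order seen in Akp3. Slc2a2, the glucose transporter, rose by 0.73 ± 0.23, with 10.96 and 10.47 against 11.72, 11.02 and 11.59. Treh and Slc2a2 did not pass with array 2 alone (adjusted p = 0.0679 and 0.575).

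Carriers and sensors of butyrate did not change together. Slc16a3, a monocarboxylate transporter that exports lactate, read 8.63 and 8.10 on high-fat diet and 5.69, 5.87 and 5.35 with butyrate. It fell by 2.73 ± 0.20 (6.62-fold, adjusted p = 2.04e-05) and passed with each butyrate array alone. Slc16a1, the main butyrate carrier of enterocytes, rose by 0.39 ± 0.12 (adjusted p = 0.0424), from 9.69 and 9.89 to 10.01, 10.24 and 10.28. Bsg, the chaperone that brings both carriers to the membrane, fell by 0.71 ± 0.15, with 12.30 and 12.09 against 11.42, 11.82 and 11.23. Emb, another such chaperone, rose by 0.68 ± 0.19, with 5.68 and 5.10 against 6.32, 5.81 and 6.09. Bsg and Emb did not pass with array 2 alone (adjusted p = 0.136 and 0.384), and Slc16a1 passed with no butyrate array alone. Neither the sodium-coupled carrier Slc5a8 (levels of 2.99 to 3.63 on the 5 arrays) nor the carrier Slc16a7 (3.30 to 4.56) passed, nor did the tested probe sets of the receptors Ffar2 (-0.20 ± 0.26), Hcar2 (0.15 ± 0.20) and Olfr78 (0.14 ± 0.20) or the exporter Abcg2 (-0.12 ± 0.15). Of the 10 measured genes 2 rose and 2 fell, against 12.9% and 8.78% of all genes, and the list median was 0.01. Among 12 genes of ketone body formation and butyrate oxidation only Acat1, a mitochondrial thiolase, passed, with a rise of 0.40 ± 0.11. Acat1 did not pass with array 2 alone either (adjusted p = 0.456). Ffar2 has another probe set, which fell by 0.54 (adjusted p = 0.0158). Without array 2 the carrier list had 1 higher and 2 lower, and the ketone body list 1 higher and 2 lower.

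The promoters of Slc16a3 and Cybrd1 are shown because one gene fell on all 3 butyrate arrays and the other mainly on arrays 1 and 3, and both are known targets of hypoxia-inducible factors. Those factors bind ACGTG or GCGTG, here marked in capitals on either strand in the 250 bases before the RefSeq start of each gene (assembly GRCm38.p6, sequence of the plus strand, on which both genes lie).
Slc16a3, chr11:120948817-120949066: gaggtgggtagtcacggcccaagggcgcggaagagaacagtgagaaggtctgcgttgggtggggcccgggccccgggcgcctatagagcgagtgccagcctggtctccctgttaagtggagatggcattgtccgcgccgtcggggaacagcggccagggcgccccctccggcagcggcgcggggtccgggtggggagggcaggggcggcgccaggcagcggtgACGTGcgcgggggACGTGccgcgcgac
Cybrd1, chr2:71117804-71118053: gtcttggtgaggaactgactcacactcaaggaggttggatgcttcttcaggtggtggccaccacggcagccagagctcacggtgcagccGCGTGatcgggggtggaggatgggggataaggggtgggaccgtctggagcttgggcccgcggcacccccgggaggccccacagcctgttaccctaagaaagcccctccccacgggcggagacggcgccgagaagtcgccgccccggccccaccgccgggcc
The Slc16a3 window holds ACGTG at 2 places close to the start, and the Cybrd1 window holds GCGTG at 1. Among 32851 RefSeq promoters of this length 16.6% hold ACGTG, 28.2% hold GCGTG and 38.6% hold at least 1 of them on either strand. A match describes the letters and shows no binding, and the factors were not measured here.

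The histone deacetylases and their partner proteins, the targets through which butyrate is known to act on chromatin, showed small changes. Of 15 measured genes 3 rose and 2 fell, against 12.9% and 8.78% of all genes, and the median was 0.11. Hdac2 rose by 0.79 ± 0.18 (adjusted p = 0.00907), with 6.30 and 6.50 on high-fat diet against 7.23, 7.01 and 7.33 with butyrate. The histone chaperones Rbbp7 (0.48 ± 0.13) and Rbbp4 (0.50 ± 0.14) rose as well, though the 2 other probe sets of Rbbp4 fell by 0.52 and 0.67 (adjusted p = 0.0229 and 0.0167), so no direction can be given for that gene. Mta1 (-0.68 ± 0.16) and Mta2 (-0.62 ± 0.18), subunits of a deacetylase complex, fell. Rbbp7 and Mta2 were called with no butyrate array alone. Hdac1 (0.33 ± 0.12), Hdac3 (0.11 ± 0.10), Hdac5 (-0.32 ± 0.21), Hdac6 (0.17 ± 0.13), Hdac7 (-0.19 ± 0.17), Hdac9 (-0.17 ± 0.15) and Hdac11 (-0.43 ± 0.15) did not pass. Another probe set of Hdac7 fell by 0.56 (adjusted p = 0.0251). With array 2 alone 0 of the 15 passed, and without it 3 rose and 1 fell. Among 18 genes known to respond to deacetylase inhibitors in culture 1 rose and 3 fell, with a median of -0.05. The shares of all genes beside this count are again 12.9% and 8.78%. Cdkn1a, the cell cycle inhibitor p21, is induced by such inhibitors in culture, and here it fell by 0.82 ± 0.20 (adjusted p = 0.0129), from 10.84 and 10.60 to 10.29, 9.74 and 9.67. Klf4, a factor of differentiated epithelium, fell by 0.80 ± 0.20, and the tested probe set of the cyclin Ccnd1 rose by 0.91 ± 0.27. The 2 other probe sets of Ccnd1 changed by -0.64 and 0.10 and did not pass (adjusted p = 0.0806 and 0.857). The other probe set of Cdkn1a fell by 2.02 and that of Klf4 by 2.3 (limma adjusted p = 1.98e-05 and 4.81e-06). Klf4 and Ccnd1 were not called with array 2 alone, where they differed by -0.54 and 0.45. Cdkn1a was called with array 2 alone but not with array 1 alone, with differences of -0.429, -0.984 and -1.055 on the 3 arrays.

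Rbp2, the retinol-binding protein of the enterocyte, read 13.85 and 13.82 on high-fat diet and 12.37, 12.70 and 12.29 with butyrate (-1.38 ± 0.13, 2.60-fold, adjusted p = 9.53e-05). Lrat, which esterifies retinol, read 4.74 and 4.71 against 2.96, 2.95 and 3.15 (-1.70 ± 0.18, adjusted p = 0.000156). Both genes passed with each butyrate array alone, and their mutant normal diet levels were 12.41 to 12.73 for Rbp2 and 3.22 to 3.41 for Lrat. Bco1, which cleaves beta-carotene, rose by 1.15 ± 0.27, with 4.57 and 4.19 against 5.21, 5.19 and 6.18. Scarb1, a receptor for lipoproteins and carotenoids, read 9.67 and 8.92 against 7.10, 8.89 and 7.81 (-1.36 ± 0.41). Of 13 measured genes of vitamin A handling 1 rose and 3 fell, against 12.9% and 8.78% of all genes. Bco1 and Scarb1 were not called with array 2 alone (adjusted p = 0.0887 and 0.535).

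**Figure D3:**
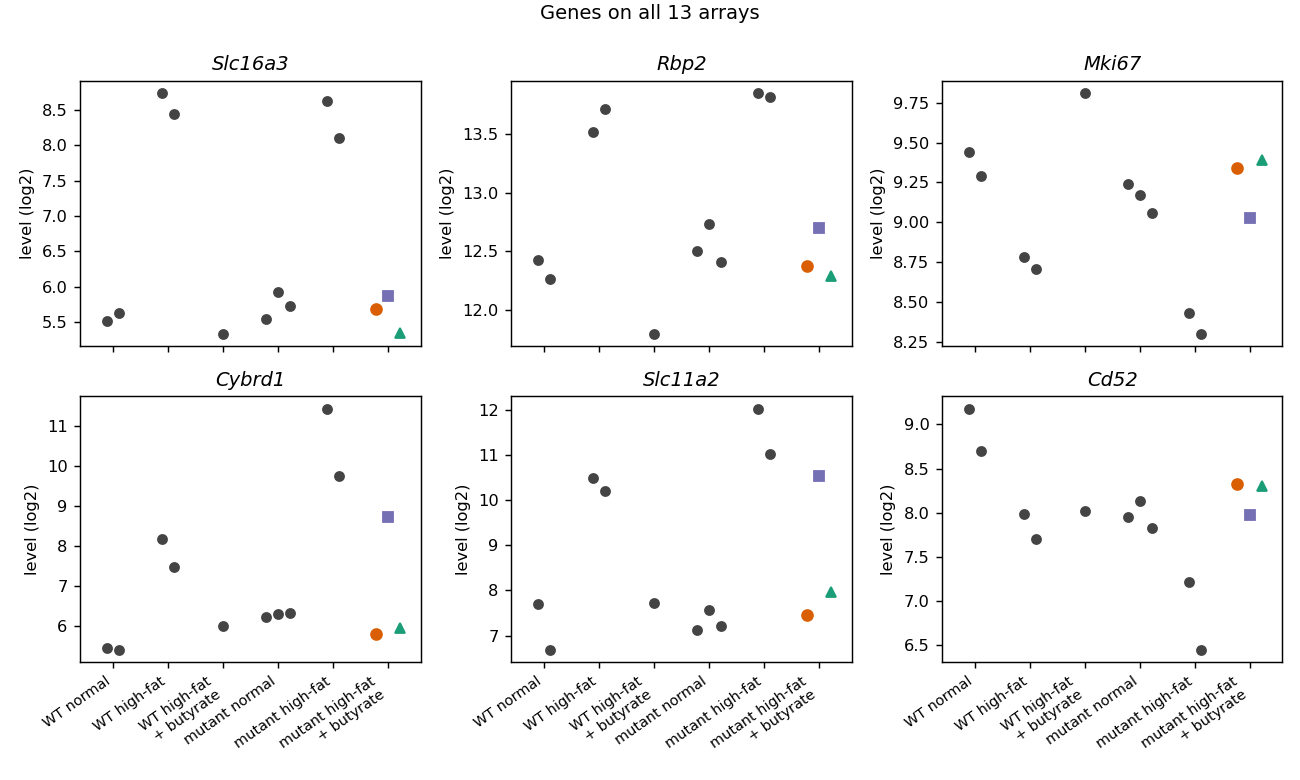
Levels (log2) of 6 genes on all 13 arrays by genotype and diet, one point an array, with the 3 mutant butyrate arrays in their own symbols (circle array 1, square array 2, triangle array 3). Slc16a3 and Rbp2 are high on the 4 high-fat arrays without butyrate and lower elsewhere, while in Cybrd1 and Slc11a2 mutant butyrate array 2 stands apart from arrays 1 and 3.

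Counts among genes of fat handling moved with array 2. Of 20 fatty acid oxidation genes 0 rose and 3 fell, against 12.9% and 8.78% of all genes, and 7 fell without array 2. The 3 were Ppara, the thioesterase Acot2 (-1.16 ± 0.21) and Hadha, a subunit of the trifunctional protein (-0.63 ± 0.13). Of 16 genes of fat uptake and chylomicron assembly 0 rose and 2 fell, and 4 fell without array 2. Mttp, which loads lipid onto apolipoprotein B, fell by 0.55 ± 0.10, with 12.60 and 12.75 against 12.11, 12.20 and 12.06, and Dgat1, which completes triglyceride synthesis, fell by 0.36 ± 0.09. Of 15 fatty acid synthesis genes 1 rose and 1 fell, and 2 rose and 3 fell without array 2. Mlxipl, a glucose-sensing transcription factor, rose by 1.17 ± 0.22, with 9.22 and 9.13 against 10.14, 10.20 and 10.70, and the desaturase Fads2 fell by 0.94 ± 0.27. Of 17 cholesterol synthesis enzymes only Dhcr7, the last enzyme of the pathway, passed (-0.69 ± 0.15), and 3 fell without array 2. The list medians of the 3 butyrate arrays were 0.04, 0.16 and -0.71, so array 3 stood lowest. Stard4, a carrier of cholesterol, fell by 1.55 ± 0.16 and passed with each array alone. Of the genes in this paragraph only Ppara and Stard4 were called with array 2 alone. The others had adjusted p-values there of 0.0585 for Mlxipl, 0.064 for Dgat1, 0.0722 for Acot2, 0.095 for Dhcr7, 0.104 for Mttp, 0.143 for Hadha and 0.431 for Fads2.

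Of 18 measured genes of glycolysis and low oxygen 1 rose and 5 fell, against 12.9% and 8.78% of all genes, with a median of -0.35. Array 2 alone had 0 higher and 1 lower, and without it 1 rose and 8 fell. Pfkl, the liver type of phosphofructokinase, read 10.99 and 10.57 on high-fat diet and 8.77, 9.68 and 8.62 with butyrate (-1.76 ± 0.26, 3.38-fold, adjusted p = 0.00119), and its other probe set fell by 1.64. The hexokinase Hk1 fell by 0.85 ± 0.19, the oxygen sensor Egln3 by 1.1 ± 0.26 and the aldolase Aldoa by 0.60 ± 0.14. In Pfkl, Egln3 and Aldoa array 2 was the highest of the butyrate arrays. Tkfc, a kinase of fructose breakdown, fell by 1.81 ± 0.16, with 10.30 and 9.81 against 8.08, 8.32 and 8.33, and all 3 arrays lay near the mutant normal diet range of 7.82 to 8.08. Pfkl and Tkfc were called with array 2 alone, while Hk1, Egln3 and Aldoa were not (adjusted p = 0.0876, 0.245 and 0.261).

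Factors of duodenal identity had a median below 0 on every butyrate array. Of 10 measured, 4 fell and 0 rose, against 8.78% and 12.9% of all genes. All 10 differences were below 0, with a median of -0.68, while 53% of all genes had a difference above 0. The medians of the 3 arrays were -0.76, -0.33 and -0.62, and array 2 alone had 2 past the threshold. Klf5, a factor of crypt epithelium, read 11.93 and 12.06 on high-fat diet and 11.17, 11.22 and 11.24 with butyrate (-0.78 ± 0.09, adjusted p = 0.00031). Gata6 fell by 0.64 ± 0.10 and Gata4, which sets the upper intestine apart from the ileum, by 0.94 ± 0.20, with 9.37 and 9.15 against 7.93, 8.61 and 8.44. The epithelial factor Elf3 fell by 0.72 ± 0.18. Pdx1, a factor of duodenum and pancreas, read 8.24 and 8.19 against 6.81, 8.13 and 6.80 on the tested probe set, which did not pass (-0.97 ± 0.39), with array 2 near the high-fat level. Another probe set of Pdx1 fell by 1.79 (adjusted p = 0.00315). Gata4 and Elf3 were not called with array 2 alone (adjusted p = 0.115 and 0.297).

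Genes of the Ras pathway were measured because the mutation lies there. Of 11 core genes 1 rose and 4 fell, with a median of -0.10. Over all genes 12.9% rose and 8.78% fell, to be set beside each list of this paragraph. Map2k2, the kinase that activates ERK, fell by 1.12 ± 0.10 (adjusted p = 6.49e-05), from 10.76 and 10.89 to 9.71, 9.72 and 9.68. Grb2, the adaptor that links receptors to Ras, fell by 1.25 ± 0.14, from 8.77 and 8.78 to 7.54, 7.39 and 7.65. The 3 butyrate arrays were within 0.3 of each other in both genes, and both passed with each array alone. Other probe sets of the same genes gave smaller changes, -0.41 for Map2k2 and -0.22 for Grb2, the last not past the threshold (adjusted p = 0.189). The exchange factor Sos1 (-0.59 ± 0.14) and the Ras inhibitor Nf1 (-0.65 ± 0.13) fell too. Of 16 ERK output genes 1 rose and 3 fell. Spred2, a feedback inhibitor, fell by 0.90 ± 0.16, from 8.80 and 8.83 to 8.0, 8.12 and 7.61. Phlda1 read 8.81 and 8.06 against 6.74, 7.85 and 6.03 (-1.56 ± 0.44) and the feedback inhibitor Spry1 read 7.39 and 7.20 against 6.37, 6.91 and 6.23 (-0.79 ± 0.23). In these 2 genes array 2 was nearest to the high-fat arrays, and with array 2 alone 0 of the 16 passed, while without it 1 rose and 6 fell. Of 16 immediate early genes 4 fell and 0 rose, led by Junb (-1.62 ± 0.18, from 8.87 and 8.49 to 6.78, 7.28 and 7.13). Among 12 genes of the EGF family 3 fell and 0 rose, the ligand Hbegf by 1.35 ± 0.20 and the receptor Erbb2 by 0.79 ± 0.18. The third, Erbb4, read 2.70 and 2.52 against 2.27, 2.25 and 2.04, close to the lowest value of any probe set, 1.76. Sos1, Nf1, Erbb2 and Erbb4 were also lost with array 2 alone, whereas Junb and Hbegf were called. Erbb4 was called with no butyrate array alone. Sos1 was called with no butyrate array alone, with differences of -0.54, -0.71 and -0.53. Erbb2 was not called with array 3 alone either. The other probe sets of Nf1 and Hbegf changed by -0.07 and 0.06 and did not pass (adjusted p = 0.794 and 0.855).

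Of 26 measured proliferation genes 7 rose, 0 fell and 19 did not pass, against 12.9% higher and 8.78% lower over all genes. The median was 0.39, and 25 of the 26 differences were above 0, against 53% over all genes. With array 2 alone 2 rose, and without it 9 rose. Mki67, the marker of cycling cells, read 8.43 and 8.30 on high-fat diet and 9.34, 9.03 and 9.39 with butyrate (0.89 ± 0.12, 1.86-fold, adjusted p = 0.000721). The checkpoint kinase Bub1 rose by 0.90 ± 0.15, from 6.57 and 6.16 to 7.31, 7.33 and 7.15. Both passed with each butyrate array alone. The replication helicase subunits Mcm4 (0.71 ± 0.14) and Mcm7 (0.93 ± 0.19) rose, but not with array 2 alone. The array medians of the list were 0.47, 0.31 and 0.42, and the mutant normal diet levels of Mki67, 9.06 to 9.24, were within the range of the butyrate arrays. Wnt and stem cell genes gave 0 of 14 past the threshold by limma, with 4 at an unadjusted p under 0.05.

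Of 19 respiratory chain genes 8 rose, 0 fell and 11 did not pass, with 1 higher with array 2 alone, a median of 0.25 and array medians of 0.30, 0.20 and 0.21. Over all genes 12.9% rose and 8.78% fell, to be set beside this list and those below. Ndufa4 read 11.45 and 11.49 on high-fat diet and 12.31, 12.12 and 12.27 with butyrate (0.76 ± 0.10, adjusted p = 0.000536). The complex I subunits Ndufb8 and Ndufb5 rose by 0.43 ± 0.08 and 0.33 ± 0.08, and Cox7a2, of complex IV, by 0.42 ± 0.09. Of 15 ribosome formation genes 4 rose, 1 fell and 10 did not pass, and with array 2 alone 0 passed. The nucleolar protein Gnl3 rose by 0.91 ± 0.16, while Nop58, which acts in a complex with Nop56, fell by 0.83 ± 0.20 and Nop56 rose by 0.56 ± 0.11. Of 12 heat shock genes 3 rose and 0 fell, and 1 rose without array 2, led by the mitochondrial chaperonin Hspe1 (0.77 ± 0.09, from 10 and 10.04 to 10.77, 10.77 and 10.81). Of 16 clock genes 4 rose and 1 fell. The tested probe sets of Nr1d2 and Per2 rose by 0.88 ± 0.12 and 0.87 ± 0.20, while their other probe sets changed by -0.33 and -0.21 and did not pass (adjusted p = 0.361 and 0.431). Nr1d1 fell by 1.49 ± 0.33, from 9.19 and 7.94 to 6.70, 7.42 and 7.09. The hour of sampling is not given in the labels. Ndufa4, Hspe1 and Nr1d2 were called with array 2 alone. Ndufb8, Ndufb5, Cox7a2, Gnl3, Nop58, Nop56, Per2 and Nr1d1 were not, with adjusted p-values of 0.0707 to 0.169.

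**Figure D4:**
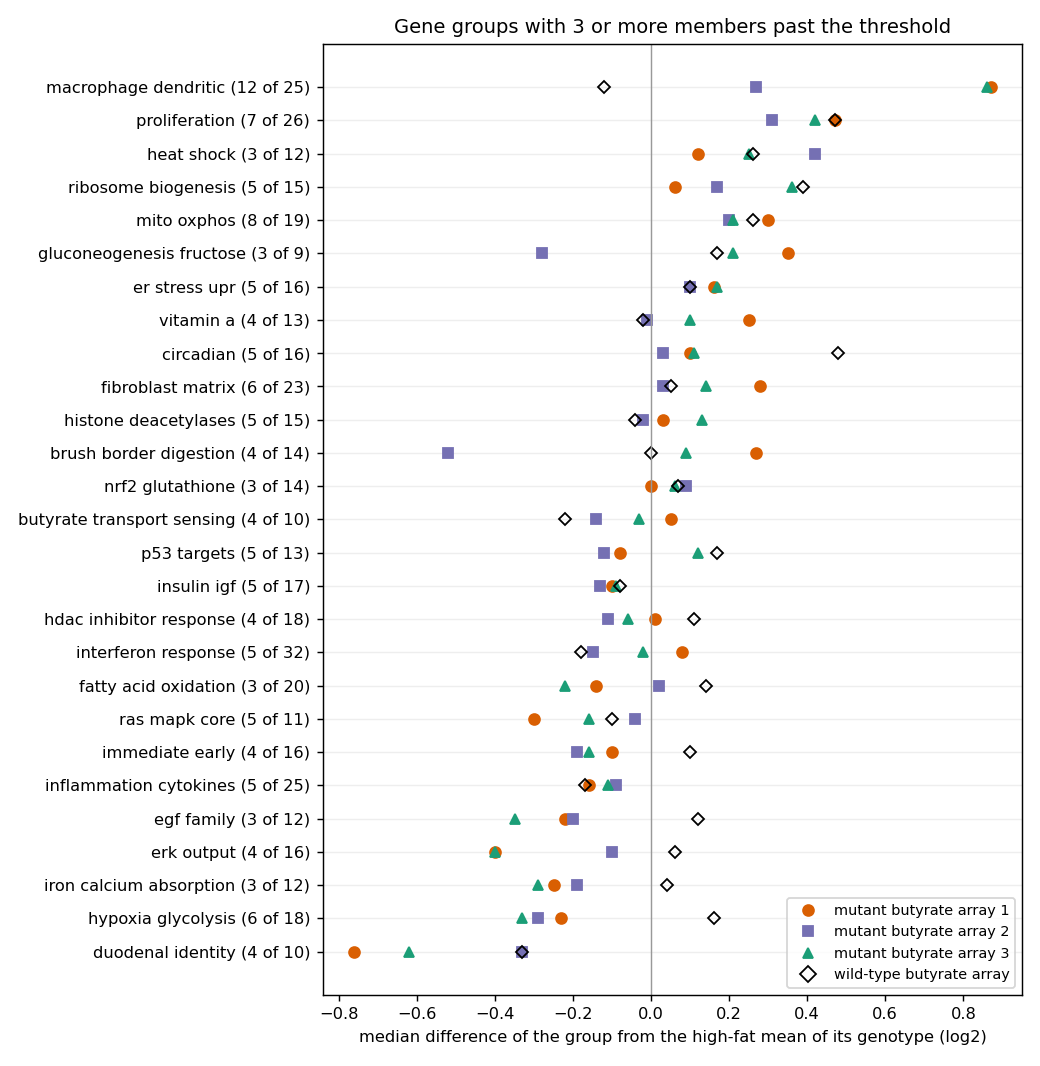
Median difference (log2) of the measured members of 27 gene groups from the high-fat mean of the same genotype, for each mutant butyrate array (filled symbols) and the wild-type butyrate array (open diamonds); brackets give the members past the threshold in mutants and the members measured. Macrophage and dendritic genes lie at 0.87 and 0.86 on arrays 1 and 3, at 0.27 on array 2 and at -0.12 in wild type, while proliferation genes lie above 0 on all 4 arrays.

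Of 25 macrophage and dendritic cell genes 11 rose and 1 fell, with a median of 0.65. Over all genes 12.9% rose and 8.78% fell, to be set beside each list of this paragraph. The array medians were 0.87, 0.27 and 0.86. With array 2 alone 0 rose and 1 fell, and without it 12 rose and 1 fell. Cd52, a surface protein of leukocytes, read 7.21 and 6.45 on high-fat diet and 8.33, 7.97 and 8.30 with butyrate (1.37 ± 0.22, 2.58-fold, adjusted p = 0.00186). Ms4a7 rose by 0.77 ± 0.15 and Ly86, a partner of a toll-like receptor homologue, by 0.95 ± 0.20, from 6.66 and 6.41 to 7.66, 7.04 and 7.75. Cx3cr1, the fractalkine receptor of gut macrophages, went the other way, from 5.87 and 6.14 to 4.83, 5.22 and 5.19 (-0.92 ± 0.15). For Ly86, arrays 1 and 3 lay in the range of the 5 wild-type arrays, 7.55 to 7.90, and array 2 lay between that range and the mutant high-fat arrays. Of 13 MHC class II genes 1 rose, H2-Aa, which read 9.66 and 9.82 against 12.03, 10.61 and 11.20 (1.54 ± 0.35, adjusted p = 0.01, and 0.15 with array 2 alone). Of 21 T cell genes 0 passed by limma, with 5 at an unadjusted p under 0.05, and 5 rose without array 2. Of 32 interferon response genes 2 rose and 3 fell, against the same 12.9% and 8.78% of all genes. Irf7, the factor that drives the response, fell by 1.13 ± 0.16, from 9.91 and 9.57 to 8.69, 8.74 and 8.41, and the antiviral genes Oasl1 and Ifit1 fell by 1.08 ± 0.23 and 0.81 ± 0.20, while Mx1 rose by 0.59 ± 0.16. Irf7 and Cx3cr1 were called with array 2 alone (adjusted p = 0.0283 and 0.0474). Cd52, Ms4a7, Ly86, Oasl1, Ifit1 and Mx1 were not, and Mx1 was called with no butyrate array alone. The MHC class II list had 3 higher without array 2.

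The array medians of the 7 measured Paneth cell genes were 1.83, -0.14 and 0.37, and 0 passed by limma, with 1 at an unadjusted p under 0.05, while 3 rose without array 2. Mmp7, the protease that activates defensins, read 7.83 and 6.32 on high-fat diet and 9.64, 6.91 and 9.05 with butyrate, where wild-type high-fat arrays read 9.66 and 9.52. The lectin Itln1 read 10.47 and 8.26 against 11.88, 9.22 and 11.66, and wild-type high-fat arrays read 12.20 and 12.15. In both genes arrays 1 and 3 lay near the wild-type level and array 2 between the mutant high-fat arrays. Of 20 enteroendocrine genes 2 rose, the factor Neurod1 (1.29 ± 0.25, from 5.65 and 5.01 to 6.94, 6.12 and 6.80) and the peptide precursor Tac1 (0.91 ± 0.18). Of 14 goblet cell genes 1 rose and 1 fell, namely the related chloride channel accessory proteins Clca3a1 (1.51 ± 0.42) and Clca3b (-1.89 ± 0.33). Over all genes 12.9% rose and 8.78% fell, to be set beside the enteroendocrine and goblet counts. Neurod1, Clca3a1 and Clca3b were not called with array 2 alone (adjusted p = 0.128, 0.476 and 0.0827), and Tac1 was (0.0486). Without array 2 the enteroendocrine list had 4 higher.

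The leading rises were a mixed group. Clec1b, a C-type lectin, read 3.56 and 4.42 on high-fat diet and 6.83, 5.40 and 7.39 with butyrate (2.55 ± 0.50, 5.85-fold, adjusted p = 0.00498), and array 2 alone did not pass (0.111). Kansl1l, a homologue of a histone acetylation complex subunit, read 5.03 and 5.21 against 7.55, 6.98 and 7.55 (2.24 ± 0.22), and its other probe sets rose by 0.46 and 2.02. Myo7a, an unconventional myosin, read 6.40 and 6.29 against 8.58, 8.17 and 8.85 (2.19 ± 0.17, 4.55-fold, adjusted p = 2.76e-05). The mutant normal diet arrays read 8.36 to 8.51 for Myo7a and the wild-type high-fat arrays 8.19 and 8.36, so the 2 mutant high-fat arrays stood alone. The carbonyl reductase Cbr3 (2.10 ± 0.41), the glutathione transferase Gsta3 (1.85 ± 0.32) and the steroid dehydrogenase Akr1c14 (1.78 ± 0.33) rose. Of 15 genes of xenobiotic metabolism, however, 0 passed by limma, with 0 at an unadjusted p under 0.05. Of 14 genes of glutathione and the Nrf2 response 1 rose and 2 fell, Keap1 by 0.88 and Gclm by 0.87. Over all genes 12.9% rose and 8.78% fell. The RNA processing genes Exosc8 (2.10 ± 0.29) and Snrnp48 (2.08 ± 0.23) rose, though the 3 other probe sets of Snrnp48 changed by -0.35 to 0.37 and did not pass. Gbp8 (2.07 ± 0.37), an interferon-induced GTPase, and Mndal (1.71 ± 0.29) rose as well. Hba-a2, a haemoglobin chain, rose by 1.87 ± 0.27, while Hba-a1 did not pass (0.10 ± 0.15). Rps4l (1.86 ± 0.51) and the ion channel gene Trpc2 (1.76 ± 0.17) complete the list with Phip and Pdxdc1. Akr1c14, Mndal, Rps4l and Pdxdc1 were not called with array 2 alone. Pdxdc1 was called with no butyrate array alone, though all 3 rose alike, by 1.78, 1.85 and 1.78. Its high-fat arrays read 8.71 and 6.03.

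For Phip and Pdxdc1 the probe sets of a gene moved in opposite directions. The tested probe set of Phip rose by 2.01 ± 0.25, another fell by 2.47 (adjusted p = 0.000208), and the remaining pair changed by 0.04 and 0.14. The tested probe set of Pdxdc1 rose by 1.80 ± 0.53, another fell by 4.07 (adjusted p = 2.14e-06), and the remaining pair changed by 0.39 and -0.42. No direction can be given for the gene as a whole in either case. Over all 1275 called genes with more than 1 probe set, 1530 of 2141 other probe sets (71.5%) had the same direction, 758 of them past the threshold, and 139 passed in the opposite direction. Among genes named above, no other probe set passed for Emb (0.38), Scarb1 (-0.88 and -0.74), Mttp (-0.22), Fads2 (-0.74), Spred2 (-0.43), Bub1 (0.35), Ndufb5 (0.14), Nop56 (0.29), H2-Aa (0.91), Neurod1 (0.39) and Clca3a1 (0.50), all in the direction of the tested probe set.

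The wild-type arrays showed most of the steady changes as well. In wild type, 1 butyrate array against 2 high-fat arrays gave 1820 genes (14.7%), 1183 higher and 637 lower, and 684 higher and 729 lower of 1413 after quantile normalization. The single wild-type butyrate array was assumed to vary like the other groups. Of the genes called in mutants, 1288 were called in wild type in the same direction, which is 48% of the mutant and 70.8% of the wild-type calls, and 2 in opposite directions. Among the 496 genes that passed with each mutant butyrate array alone, 425 (85.7%) were also called in wild type in the same direction, and 16 were genotype genes. The 4-fold falls included 32 of 36 called in both genotypes. Zbtb7a fell by 4.43 in wild type, from 8.48 and 8.55 to 4.08, and Slc16a3 fell by 3.26, from 8.74 and 8.45 to 5.33. Cybrd1 read 8.17 and 7.47 against 5.98 in wild type and did not pass (adjusted p = 0.255). The diet contrasts of the genotypes share no arrays, but each compares the same 2 array series.

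**Figure D5:**
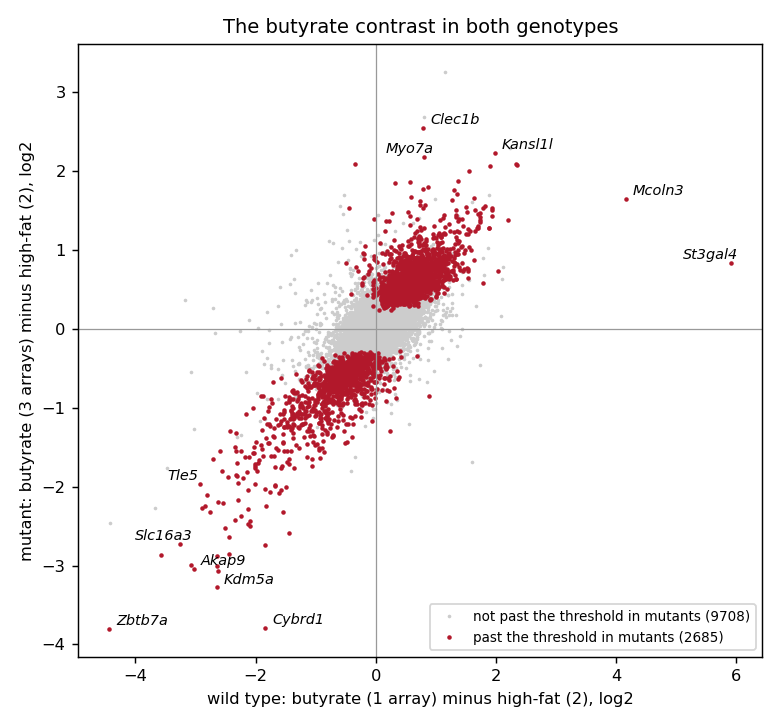
Difference between butyrate and high-fat arrays (log2) in mutants (vertical) against wild type (horizontal) for 12393 genes, one point a gene, with the 2685 genes past the threshold in mutants in red. Most red points lie where both genotypes have the same sign, and St3gal4 lies apart at 5.92 in wild type and 0.84 in mutants.

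The butyrate contrast itself differed between the genotypes in 1 gene by limma (0.00807% of genes tested), and 688 genes had an unadjusted p under 0.05. St3gal4, a sialyltransferase, read 11.10 and 11.10 on the mutant high-fat arrays and 11.86, 11.89 and 12.09 with butyrate (0.84 ± 0.13). In wild type it read 5.97 and 6.44 on high-fat diet and 12.13 with butyrate, so the gap was made by the 2 wild-type high-fat arrays, which were the lowest of all 13. The smallest adjusted p after it was 0.337, for Ifi44l. This contrast also rests on the genotype labels of mutant butyrate arrays 1 and 3, which lay at wild-type level in genotype genes (0.16 and 0.18). With 1 wild-type butyrate array it can show large differences only, and genes such as Myo7a (2.19 in mutants and 0.81 in wild type) are not shown to differ or to be alike.

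The mutant normal diet arrays give a further level to set beside these. Between mutant butyrate and mutant normal diet 195 genes differed (1.57%), 71 higher and 124 lower with butyrate, and between mutant high-fat and mutant normal diet 2197 did. These comparisons share arrays with each other and with the main one. Slc16a3 read 5.54, 5.92 and 5.73 on normal diet, Rbp2 12.50, 12.73 and 12.41, and Tkfc 7.82, 8.08 and 8.01, levels that the butyrate arrays of the same genes met or came near. Zbtb7a and Espn lay below the normal diet levels on all 3 butyrate arrays, by 0.77 (adjusted p = 0.0216) and 0.98 ± 0.13 (adjusted p = 0.00392), and Hba-a2 lay above them by 1.69 (adjusted p = 0.00703).

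Outside the acinar pancreas list, the genes that differed most among the 3 butyrate arrays were mainly markers of the stomach lining. The acinar list was left out of this ranking, and its mean was 7.31, 10.12 and 6.47 on these arrays. The ranked genes are described without a test. Gkn2, a gastrokine of gastric surface cells, read 12.65, 5.83 and 5.28 with butyrate and 10.74 and 10.03 on high-fat diet. Tff2, a trefoil peptide of gastric neck cells and duodenal glands, read 13.39, 7.99 and 6.16 with butyrate and 13.04 and 8.84 on high-fat diet. Gkn1, Tff1, Wfdc18 and Sptssb were also highest on array 1, while Anxa10 and Ctse were highest on array 2. All of these were lowest on array 3. Cyp1a1, a detoxifying enzyme induced by ligands of the aryl hydrocarbon receptor, read 10.21, 7.95 and 3.35 with butyrate and 3.98 and 3.83 on high-fat diet, and it read 4.80, 8.37 and 5.31 on normal diet. Tcf23, given above, completes these 10 genes. A further count took genes on which 1 butyrate array lay at least 1 away from the mean of both others. Those others had to be within 0.5 of each other. The count was 47 for array 1, 121 for array 2 and 16 for array 3.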

How the data were processed

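Total RNA from 13 mouse duodenum samples was hybridised to Affymetrix arrays, 1 sample an array. The deposited table holds log2 values of 22690 probe sets, which the authors computed by RMA in Affymetrix Expression Console 1.1, per the submitters' processing notes. RMA corrects background, equalises the distributions of the arrays and summarises probes into probe sets. No genome build is named in the labels. Values ran from 1.76 to 14.2. Probe sets were named through the platform annotation. Of them, 20380 had 1 symbol, 691 several and 1555 none, beside 64 controls, and 20351 were matched to RefSeq (GRCm38.p6) by Entrez identifier. One probe set a gene was used, that with the greatest 13-array mean, which gave 12393 genes, with no filter on dim ones.

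Differences were fitted with limma 3.58.1 in R 4.3.3 (6 group means over 13 arrays, 7 residual degrees of freedom, eBayes with trend), two-sided, with Benjamini-Hochberg adjustment over all genes at 0.05; the procedure was tested on simulated data. Errors are standard errors unless named otherwise, and the number of arrays limits the precision. Genes named are the 15 largest rises and 15 largest falls past the threshold with non-overlapping arrays. Up to 4 members of each list by smallest p are named too, with all butyrate transport and deacetylase genes. Up to 15 genes a direction were also chosen from the wild-type and interaction contrasts, and only some of these are named in the text. The 10 genes with the widest range over the butyrate arrays were taken outside the acinar pancreas list. Exceptions are stated. The comparison, its gene lists and the rule were chosen with earlier results of these data known. Promoter sequences are from RefSeq. Alternatives changed the normalization, probe set rule, dim-gene filter, trend, array weights, samples fitted, acinar covariate, replicate block and arrays left out.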

Additional observations from a re-analysis of the deposited data

Results flagged for a closer look

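The butyrate contrast of St3gal4, a sialyltransferase, differed between the genotypes by -5.08 ± 0.23 (mutant minus wild type, log2; limma interaction, adjusted p = 1.47e-06). Its difference was 0.84 in mutants and 5.92 in wild type, where 1 butyrate array stood against 2 high-fat arrays at 5.97 and 6.44. The other 11 arrays lay between 11.10 and 12.28.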

How the results depend on the processing

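The mutant count of 2685 genes was within 1.5 times under quantile normalization (2628), without dim genes (2735), with the mean of probe sets (2865), without trend (2678), with array weights (3070), with the compared arrays only (1801) and with the acinar covariate (2570). It was 642 with butyrate array 2 only and 1740 with array 3 only, and 1317 to 3041 when 1 array was left out, lowest without high-fat array 1 and highest without butyrate array 2. The wild-type count of 1820 was 1413 after quantile normalization, with 48.4% higher in place of 65%, and 945 to 951 without either high-fat array; leaving out its only butyrate array could not be run. The interaction count was 1 to 2 genes when 1 array was left out. With the replicate number as a block the counts were 2091, 1219 and 1; arrays with the same number shared only that number, and their deviations correlated at 0.06 and -0.16. Genes chosen for naming were refitted under quantile normalization, the mean of probe sets, the acinar covariate and without each of the 5 compared arrays. Of 172 past the threshold 68 passed in all of these and 104 were lost in at least 1. The other alternatives, fits with a single butyrate array among them, do not enter this count. With the mean of probe sets 5 reversed: Phip (-0.07), Pdxdc1 (-0.58), Rbbp4 (-0.23), Dnajc3 (0.66) and Xist (-0.62). Their probe sets differ in direction. A probe set of the sex-linked Xist other than the tested one fell by 2.54 (limma adjusted p = 1.44e-05). Of 4 measured sex-linked genes 1 rose and 0 fell, against 12.9% and 8.78% of all genes. Whether sex differed between the compared arrays was not tested.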
